A study of Homo sapiens with 6 samples.

Results

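The Wnt pathway genes described here are 58 listed genes for ligands, receptors, secreted antagonists, R-spondins with their LGR receptors, cytoplasmic core proteins, TCF/LEF factors and feedback inhibitors. They were chosen by symbol, and 53 of them had a row among the 34811 genes of the count table. WNT1, FZD10, SFRP1, SFRP5 and RSPO3 had none and were not analysed here; the table held 0 genes without a read in all 6 libraries. RNA-seq compared OV3/COX1KD cells with OV3/SCR cells, both made from OVCAR-3, an established human ovarian carcinoma cell line, to ask which genes respond to loss of cyclooxygenase-1 (COX-1). OV3/COX1KD cells carried a COX-1 shRNA in the pRS HuSH-29 plasmid, OV3/SCR cells carried a scrambled shRNA in the same plasmid, and both were stable clones taken through puromycin selection and grown in RPMI-1640 with 10% FBS. Each condition had 3 libraries from independent passages of 1 clone (#2 for the knockdown, #1 for the control), so the knockdown and the clone cannot be told apart, and p-values measure the spread between passages only.

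Wnt proteins are secreted lipid-modified ligands that bind Frizzled receptors. With the co-receptors LRP5 and LRP6 they stabilise β-catenin, which enters the nucleus and activates genes with TCF/LEF factors. Without β-catenin, by way of ROR receptors among others, they act on cell shape and movement. The pathway is held in check by secreted proteins such as Dickkopf (DKK) and by feedback inhibitors that it switches on itself, of which AXIN2 is the most widely used readout.

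The libraries held between 25291505 and 27391538 counted reads. The gene for COX-1, PTGS1, had 713, 658 and 641 counts in OV3/SCR and 456, 486 and 501 in OV3/COX1KD libraries, a remaining mRNA level of 73.3%. The study picked clone #2 because its COX-1 protein was reduced most efficiently, and it reported less prostaglandin production from arachidonic acid in the knockdown cells. Protein was not measured in these libraries. All 12 markers of ovarian epithelium passed the filter on low counts, with summed levels of 5039 to 5074 CPM (counts relative to library size, scaled by TMM) in OV3/SCR and 6545 to 6734 in OV3/COX1KD libraries. These markers did not move together. PAX8 (log2 fold change -0.76, edgeR FDR = 4.3e-13), WFDC2 (-0.29, edgeR FDR = 4.1e-06) and KRT7 (-0.14, edgeR FDR = 1.0e-04) were lower in OV3/COX1KD, and the others were higher. Fibroblast markers, 3 of 8 above the filter, summed to 11.3 to 12.0 and 6.87 to 7.54 CPM, immune markers, 2 of 6 above it, to at most 2.15 CPM, and endothelial markers, 2 of 3 above it, to at most 3.57 CPM. No part of these markers in the results below was tested. In RNA from a whole culture, fewer cells expressing a gene and less RNA per cell cannot be told apart.

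The knockdown clone had a smaller Wnt ligand pool relative to exon length, in which WNT10B had the largest share in the control. Several Frizzled receptors and LRP5 were at higher levels. DKK1 was lower and DKK3 and LEF1 were higher, while AXIN2 did not change detectably. Of the 53 genes, 39 passed edgeR's filter on low counts and were tested, and 21 of these had an FDR under 0.01 by edgeR's quasi-likelihood test (53.8%, against 47.9% of all 17309 tested genes). Among them 14 were higher in OV3/COX1KD (35.9%, against 25.8%) and 7 were lower (17.9%, against 22.1%). With a log2 fold change beyond 0.5 as well, 7 were higher (background 9.87%) and 3 lower (background 10.0%), and with a fold above 2.5, 1 was higher (background 1.58%) and 3 were lower (background 2.34%), 4 in all (background 3.92%). The share called was near the background, so these counts are no result about the pathway as a whole, and the median log2 fold change was 0.11 over the 39 genes against -0.01 over all tested genes.

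**Figure D1:**
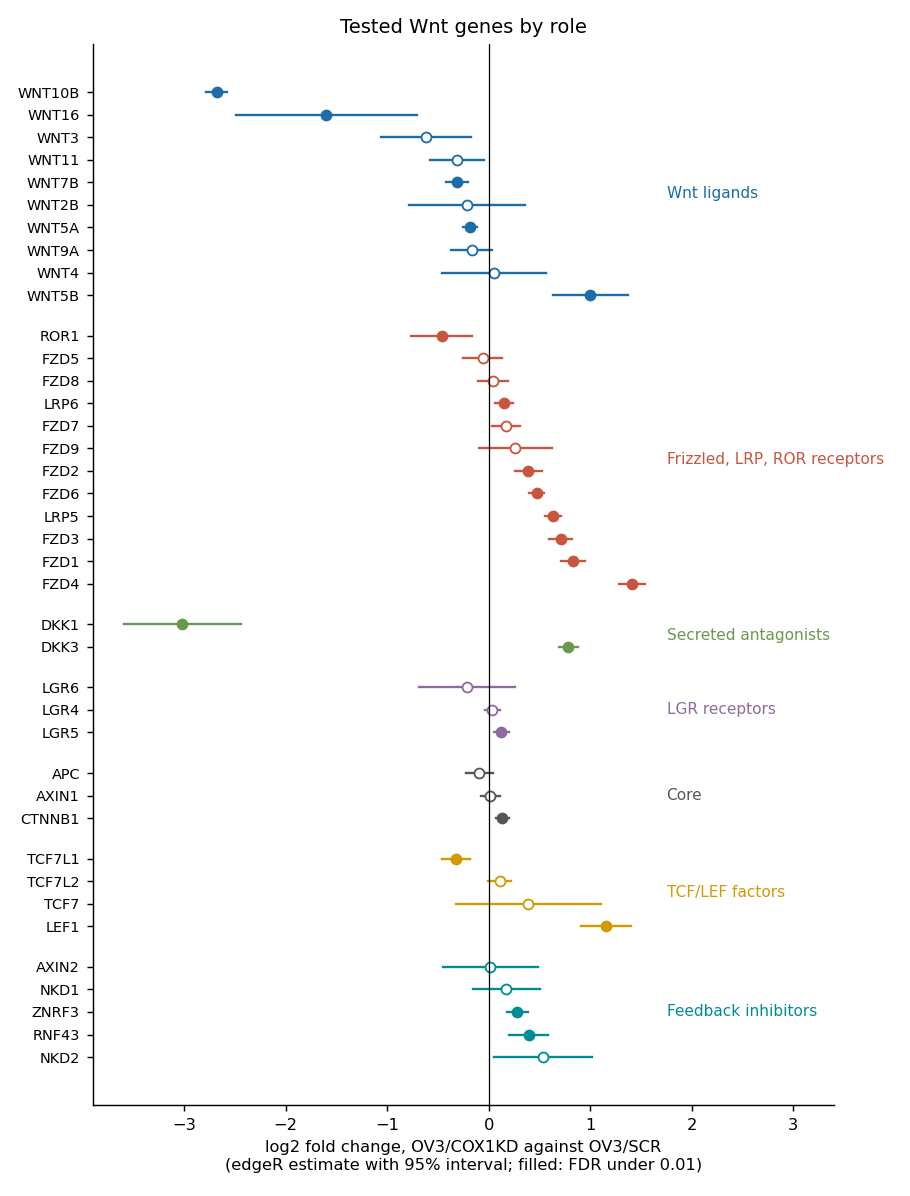
Each row is 1 of the 39 tested Wnt genes, grouped by role; points are edgeR log2 fold changes of OV3/COX1KD against OV3/SCR, lines are 95% intervals, and filled points have an FDR under 0.01. WNT10B at -2.68 and DKK1 at -3.02 lie farthest to the left, and FZD4 at 1.41 farthest to the right.

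WNT10B, a ligand best known for canonical signalling in mammary gland, fat and bone, showed the largest fall among the ligands. WNT10B (ENSG00000169884, chromosome 12 of GRCh37 from 49359123 to 49365518) gave 2126, 1968 and 2039 counts in the control replicates and 304, 305 and 328 in the knockdown replicates. Every OV3/COX1KD library was far below every OV3/SCR library, and the replicates of each condition lay close together. Its level fell from 78.1 ± 2.23 CPM (SD, n = 3) to 12.2 ± 0.117 (SD, n = 3), a log2 fold change of -2.68 (SE 0.049, edgeR FDR = 1.1e-18), which is 6.40-fold lower. Among 55 tested neighbours, genes within 2 Mb of WNT10B and above an abundance limit (mean log2 CPM 1), the median log2 fold change was -0.08, with 15 higher and 18 lower by edgeR at an FDR under 0.01.

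WNT5A, the archetype of ligands that act without β-catenin, was the other abundant ligand. It had 4230, 4256 and 4161 counts in OV3/SCR and 3542, 3479 and 3890 in OV3/COX1KD libraries. The conditions did not overlap after scaling, but the fall was small, with a log2 fold change of -0.18 (SE 0.032, edgeR FDR = 6.3e-05). WNT7B, a canonical epithelial ligand, had 868, 846 and 887 counts in OV3/SCR and 678, 643 and 732 in OV3/COX1KD libraries, and fell by 0.31 on the log2 scale (SE 0.051, edgeR FDR = 2.8e-05).

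These shifts changed the make-up of the ligand pool. Levels of different genes were compared as CPM per kilobase of annotated exon, and on this scale the 15 ligand genes summed to 65.1 ± 0.495 in OV3/SCR and 35.0 ± 0.853 in OV3/COX1KD (each SD, n = 3), a ratio of 0.538. WNT10B held 46.1% ± 0.973 of the sum in OV3/SCR and 13.4% ± 0.204 in OV3/COX1KD (each SD, n = 3), and WNT5A held 34.6% ± 0.759 and 56.6% ± 0.547. WNT10B stood above WNT5A in OV3/SCR (30.0 ± 0.86 against 22.5 ± 0.32 CPM per kilobase) and below both WNT5A and WNT7B in OV3/COX1KD (4.69 ± 0.045 against 19.8 ± 0.52 and 5.25 ± 0.18). This order was the same with the longest annotated transcript as the length, a choice made after seeing the data.

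**Figure D2:**
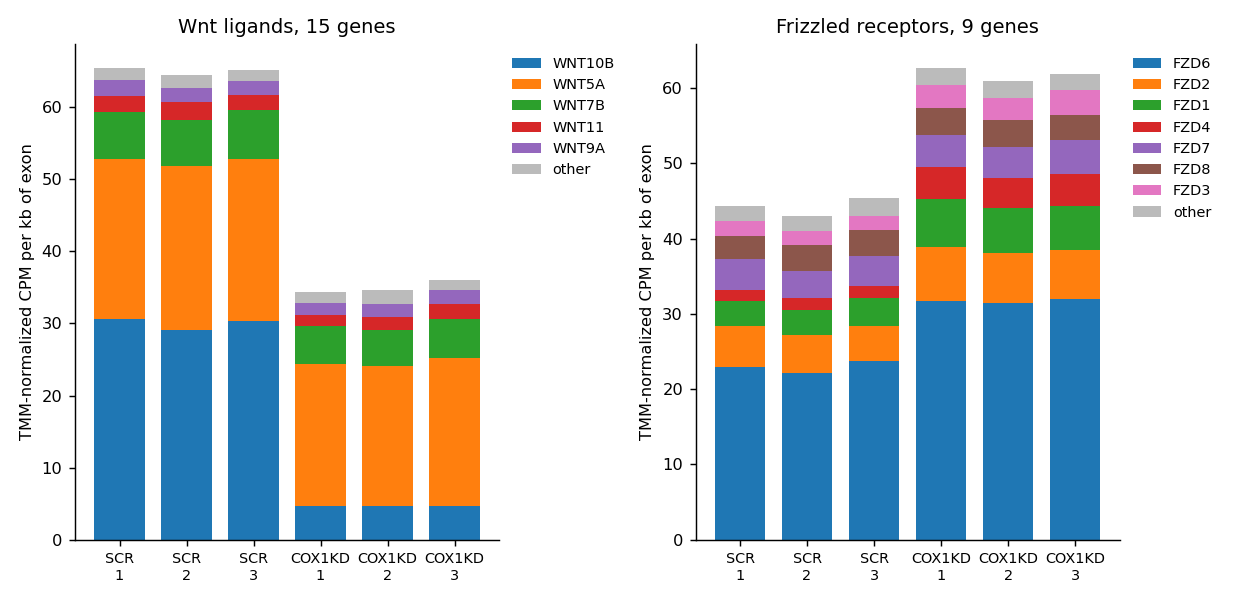
Stacked bars give the level of each gene in each library in CPM per kilobase of exon, for the 15 measured Wnt ligands (left) and the 9 measured Frizzled receptors (right). The ligand sum is near 65 in the 3 OV3/SCR libraries and near 35 in the 3 OV3/COX1KD libraries, where the WNT10B segment is much thinner, and the Frizzled sum is higher in OV3/COX1KD, with FZD6 the largest segment in every library.

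Of the scarcer ligands, WNT5B rose. WNT5B, a close paralog of WNT5A, had 36, 43 and 48 counts in OV3/SCR and 84, 92 and 73 in OV3/COX1KD libraries. Every OV3/COX1KD library exceeded every OV3/SCR library, with a log2 fold change of 1.00 (SE 0.18, edgeR FDR = 6.5e-05). WNT16, known for its roles in bone and in hematopoietic stem cells, had 14, 17 and 10 counts in OV3/SCR and 6, 4 and 3 in OV3/COX1KD libraries. The conditions did not overlap, and the log2 fold change was -1.60 (SE 0.43, edgeR FDR = 0.0032), but its FDR was 0.0204 by DESeq2 and between 0.0116 and 0.0233 without OV3/SCR replicate 1, OV3/SCR replicate 2 or OV3/COX1KD replicate 3. Of the 4 tested neighbours of WNT16 within 2 Mb, 3 were higher by edgeR at an FDR under 0.01, and their median log2 fold change was 0.64.

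WNT3, a canonical ligand, was not called, and this depended on 1 library and on the processing. It had 76, 74 and 73 counts in OV3/SCR and 34, 69 and 39 in OV3/COX1KD libraries, so OV3/COX1KD replicate 2 stood close to the control and the others well below it. Its log2 fold change of -0.62 did not pass the threshold (edgeR FDR = 0.0170), and without OV3/COX1KD replicate 2 it was -1.0 (edgeR FDR = 9.7e-06). With all 6 libraries, WNT3 passed with total count scaling (-0.69, edgeR FDR = 0.0068) and without the filter on low counts (-0.60, edgeR FDR = 0.0025). WNT11 had a log2 fold change of -0.31 (edgeR FDR = 0.0389), and -0.44 without OV3/COX1KD replicate 3 (edgeR FDR = 0.00844). WNT2B, WNT4 and WNT9A had log2 fold changes between -0.22 and 0.05 and an edgeR FDR of at least 0.146. In all, 1 of the 10 tested ligands rose and 4 fell, against 25.8% and 22.1% of all tested genes.

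The other 5 measured ligands did not pass the filter. WNT6 had 9, 5 and 4 counts in OV3/SCR and 1, 2 and 0 in OV3/COX1KD libraries, a ratio of totals of 5.87 in favour of the control with an exact 95% interval of 1.71 to 31.1 that covers counting error only. WNT10A, named after its values were seen, had 17, 18 and 8 counts in OV3/SCR and 6, 5 and 0 in OV3/COX1KD libraries. Without the filter the edgeR FDR was 4.0e-04 for WNT10A and 0.0158 for WNT6. WNT3A had between 3 and 8 counts per library, and WNT2 and WNT7A were at or under 3 counts, the floor taken as detectable, in all 6 libraries.

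Receptors moved mainly upward. Of 12 tested receptor genes, 7 were higher in OV3/COX1KD (58.3%, against 25.8% of all tested genes) and 1 was lower, with a median log2 fold change of 0.33. Of 9 Frizzled genes, which encode the membrane receptors that bind Wnt directly, 5 were higher by edgeR, and the other 4 had an edgeR FDR between 0.0317 and 0.640. FZD5 was the only Frizzled gene with a negative log2 fold change (-0.06, edgeR FDR = 0.587). The summed Frizzled level was 44.3 ± 1.25 CPM per kilobase in OV3/SCR and 61.9 ± 0.877 in OV3/COX1KD (each SD, n = 3), without overlap between libraries and with no test of the sum.

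FZD4, which serves as receptor for Norrin as well as Wnt in blood vessel growth, rose most. FZD4 (ENSG00000174804, chromosome 11 of GRCh37 from 86656721 to 86666437) gave 309, 310 and 292 counts in OV3/SCR and 798, 728 and 837 in OV3/COX1KD libraries. All 3 OV3/COX1KD libraries were far above the controls, at 30.7 ± 1.46 CPM (SD, n = 3) against 11.6 ± 0.300 (SD, n = 3). The log2 fold change was 1.41 (SE 0.061, edgeR FDR = 1.9e-13), a fold of 2.65. Exons of PRSS23 on the opposite strand cover 18.9% of the exon length of FZD4, and the kit used does not mark strand. PRSS23 had a log2 fold change of -0.87 (edgeR FDR = 2.0e-12), and the part of its reads in the FZD4 counts was not tested.

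FZD1, FZD3 and LRP5 rose by smaller amounts. FZD1 had 596, 595 and 663 counts in OV3/SCR and 1114, 1040 and 1074 in OV3/COX1KD libraries, with a log2 fold change of 0.83 (SE 0.057, edgeR FDR = 1.9e-10). FZD3, best known for axon guidance and planar polarity, had 721, 663 and 680 counts against 1067, 1002 and 1232, with a log2 fold change of 0.71 (SE 0.055, edgeR FDR = 1.4e-09). LRP5, the co-receptor for β-catenin signalling, had 2675, 2626 and 2516 counts against 4113, 3634 and 4119, with a log2 fold change of 0.63 (SE 0.039, edgeR FDR = 4.7e-11). In each of these genes the lowest OV3/COX1KD library was above the highest OV3/SCR library.

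FZD6 had the highest level per kilobase among the FZD, LRP and ROR genes of the list. FZD6 had 2483, 2340 and 2494 counts in OV3/SCR and 3244, 3209 and 3471 in OV3/COX1KD libraries, with no overlap, a log2 fold change of 0.47 (SE 0.035, edgeR FDR = 5.4e-10). Its 14 tested neighbours within 2 Mb were centred on a log2 fold change of 0.18 (median), with 8 higher by edgeR at an FDR under 0.01. FZD2 rose by 0.39 on the log2 scale (edgeR FDR = 3.1e-05). In OV3/SCR, FZD6 at 22.9 ± 0.82 CPM per kilobase (SD, n = 3) was followed among the Frizzled genes by FZD2 at 5.13 ± 0.39, and then by FZD7, FZD1 and FZD8 with means between 3.33 and 3.86, where the libraries of FZD7 overlapped those of FZD1 and the libraries of FZD1 those of FZD8. FZD3, FZD4, FZD5 and FZD9 were lower, with means between 0.886 and 1.91. In OV3/COX1KD the order after FZD6 was FZD2 at 6.73 ± 0.38, FZD1 at 6.10 ± 0.29, FZD7 at 4.34 ± 0.19 and FZD4 at 4.16 ± 0.20, where the libraries of FZD7 and FZD4 overlapped. FZD1 moved above FZD7, and FZD4 above FZD8 and FZD3. LRP5 stood between FZD6 and FZD2 in both conditions, at 16.1 ± 0.30 and 24.97 ± 1.5 CPM per kilobase.

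LRP6, the other canonical co-receptor, changed little. It had 3217, 3182 and 3299 counts in OV3/SCR and 3518, 3178 and 3859 in OV3/COX1KD libraries, which overlapped after scaling. Its log2 fold change of 0.15 (edgeR FDR = 0.0041) fell to 0.07 with total count scaling (edgeR FDR = 0.121) and did not pass by DESeq2 (FDR = 0.0122) or without OV3/SCR replicate 1, OV3/SCR replicate 2, OV3/COX1KD replicate 1 or OV3/COX1KD replicate 3 (edgeR FDR between 0.0210 and 0.0377). ROR1, a receptor for WNT5A, had 95, 112 and 88 counts in OV3/SCR and 76, 63 and 70 in OV3/COX1KD libraries. Its log2 fold change of -0.46 (edgeR FDR = 0.00965) lay at the threshold. ROR1 did not pass by DESeq2 (FDR = 0.0326), without the filter on low counts, with the replicate block or without each of 5 libraries in turn. ROR2 was at or under 3 counts in all 6 libraries.

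**Figure D3:**
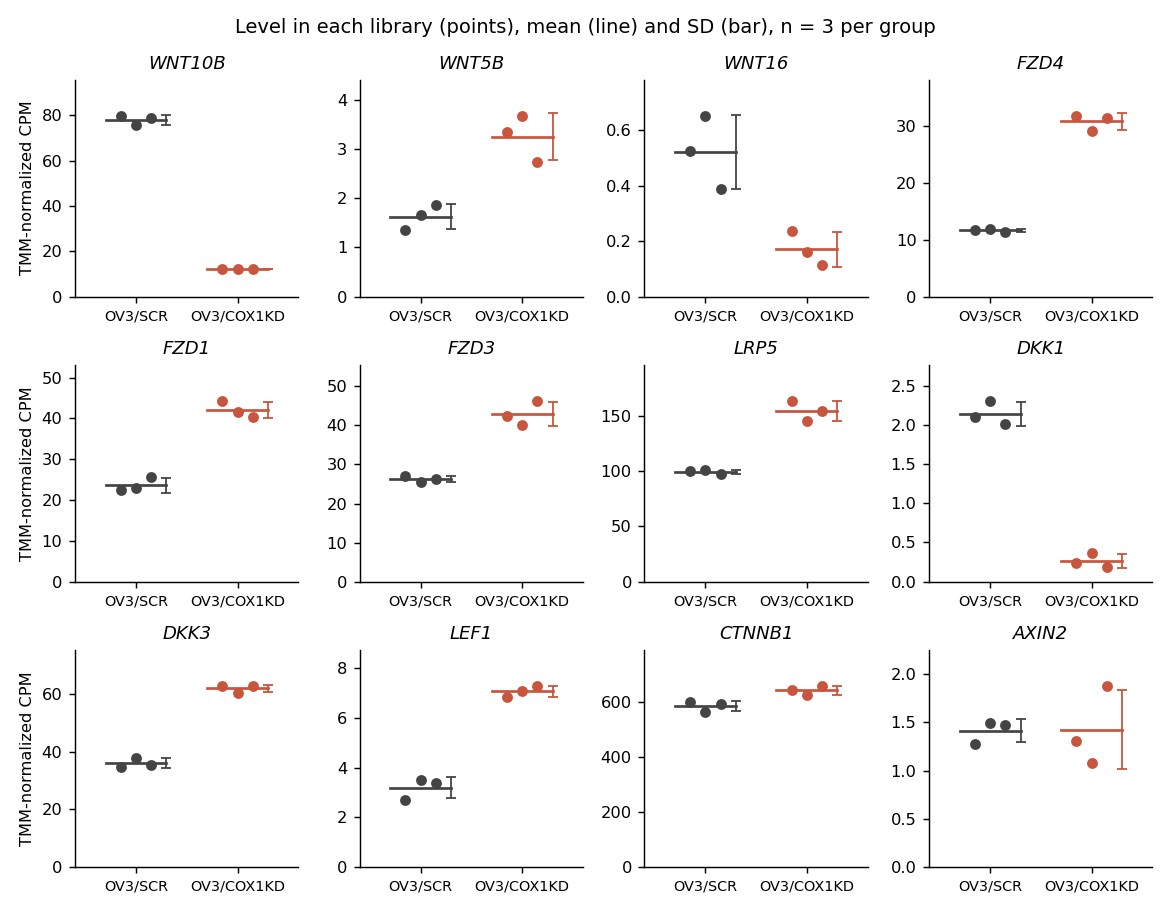
Each panel shows 1 gene, with the level in TMM-normalized CPM on the vertical axis, a point per library, the mean as a line and the SD as a bar, for 3 OV3/SCR and 3 OV3/COX1KD libraries. The conditions do not overlap in any panel except AXIN2, where the OV3/COX1KD libraries lie on both sides of the controls.

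The secreted antagonists split. DKK1, which blocks LRP5 and LRP6 and is itself switched on by β-catenin, had the largest fall of all 39 tested Wnt genes. DKK1 (ENSG00000107984, chromosome 10 of GRCh37 from 54074041 to 54077802) gave 56, 60 and 52 counts in OV3/SCR and 6, 9 and 5 in OV3/COX1KD libraries. The conditions were far apart relative to their spread, at 2.14 ± 0.149 CPM (SD, n = 3) and 0.262 ± 0.0881 (SD, n = 3). The log2 fold change was -3.02 (SE 0.27, edgeR FDR = 1.3e-08), 8.08-fold lower, exons of PRKG1-AS1 on the opposite strand cover 10.2% of its exon length, and the 6 tested neighbours within 2 Mb had a median of 0.20.

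Because DKK1 is a known target of β-catenin and FZD4 was the gene that rose most, their promoter windows, 250 bases before and 50 after the RefSeq gene start, were searched on both strands for the core letters bound by TCF/LEF factors, CTTTGA and CTTTGT. The capitals mark the matches, and the sequences were taken from RefSeq and placed on GRCh37 by an exact match, DKK1 at chr10:54073791-54074090 on the plus strand and FZD4 at chr11:86666388-86666687 on the minus strand, both written 5′ to 3′.
DKK1: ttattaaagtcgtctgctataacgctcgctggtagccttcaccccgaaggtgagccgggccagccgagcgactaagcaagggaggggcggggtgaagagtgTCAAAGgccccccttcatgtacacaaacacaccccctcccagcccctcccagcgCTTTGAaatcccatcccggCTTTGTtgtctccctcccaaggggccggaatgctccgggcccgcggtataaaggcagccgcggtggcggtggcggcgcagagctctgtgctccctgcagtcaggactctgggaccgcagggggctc
FZD4: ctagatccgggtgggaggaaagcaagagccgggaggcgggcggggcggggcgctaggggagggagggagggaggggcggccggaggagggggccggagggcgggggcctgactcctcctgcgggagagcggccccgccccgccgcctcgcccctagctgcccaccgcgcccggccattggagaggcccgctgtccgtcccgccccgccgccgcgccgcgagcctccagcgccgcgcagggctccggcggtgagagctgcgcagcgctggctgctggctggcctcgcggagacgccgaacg
The DKK1 window held 3 matches, at positions -149, -95 and -76 from the gene start, and the FZD4 window held 0. The window of LEF1, which also rose, held 0 as well. It lay at chr4:109087408-109087707 on the minus strand, around a RefSeq start inside the annotated span of LEF1. The sequence around the start of that span, at 109090112, was not searched. Among the other called Wnt genes, matches lay in windows of FZD1, at -224, and RNF43, at -135 and -90. Both of these genes rose, so matches were not confined to genes that fell. Of all 35116 promoter windows in the table, 26.2% held at least 1 match, and of 50 windows of 40 of the Wnt genes 8 did. WNT10B had no entry. A match is a description of letters and not of a bound site.

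DKK3, a divergent Dickkopf family member that does not block LRP6 as DKK1 does, was higher in OV3/COX1KD. It had 928, 987 and 917 counts in OV3/SCR and 1580, 1518 and 1674 in OV3/COX1KD libraries. The conditions did not overlap, with a log2 fold change of 0.78 (SE 0.044, edgeR FDR = 9.1e-12). Annotated exons of USP47 on the opposite strand cover 47.5% of the exon length of DKK3, and USP47 had a log2 fold change of -0.09 (edgeR FDR = 0.0375).

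The measured antagonists that bind Wnt directly were scarce, and so were the Dickkopf genes DKK2 and DKK4. SFRP2 had 1, 0 and 1 counts in OV3/SCR and 6, 5 and 5 in OV3/COX1KD libraries, a ratio of totals of 8.18 with an exact 95% interval of 1.92 to 73.3 for counting error only, and an edgeR FDR of 0.00962 without the filter. FRZB had 0, 1 and 1 counts against 4, 2 and 5 (edgeR FDR = 0.0880 without the filter). SFRP4 and WIF1 were at or under 3 counts in all 6 libraries, DKK4 had at most 4 counts, and DKK2 had 7, 5 and 5 counts against 2, 1 and 5. In none of these genes did the counts reach the filter.

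Of the LGR receptors, which amplify Wnt signals on binding R-spondins, LGR4 and LGR5 were abundant and differed little between conditions, and LGR6 was scarce. LGR4 had 3973, 3747 and 3954 counts in OV3/SCR and 3844, 3649 and 4231 in OV3/COX1KD libraries, with a log2 fold change of 0.04 (95% interval -0.04 to 0.11, edgeR FDR = 0.400). LGR5, a stem cell marker, had 1738, 1654 and 1654 counts against 1739, 1759 and 1878, and its log2 fold change of 0.12 (edgeR FDR = 0.00672) passed the threshold but lost it by DESeq2 (FDR = 0.0386), with total count scaling (edgeR FDR = 0.314), with RLE size factors (edgeR FDR = 0.0102), with a minimum of 10 counts in each library (edgeR FDR = 0.0156) and without each library in turn except OV3/COX1KD replicate 2 (edgeR FDR between 0.0125 and 0.0279). LGR6 had 27, 36 and 40 counts against 27, 29 and 31 and a log2 fold change of -0.21 (edgeR FDR = 0.436). The R-spondin genes RSPO1 and RSPO2 were at or under 3 counts in all 6 libraries.

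The core genes moved little. CTNNB1, which encodes β-catenin and was the Wnt gene of highest level, had 15927, 14696 and 15290 counts in OV3/SCR and 16186, 15661 and 17484 in OV3/COX1KD libraries. Its log2 fold change of 0.13 (SE 0.030, edgeR FDR = 8.3e-04) was 0.06 with total count scaling (edgeR FDR = 0.126), and its edgeR FDR was 0.0103 without OV3/SCR replicate 2. APC and AXIN1, scaffolds of the complex that degrades β-catenin, had log2 fold changes of -0.10 (edgeR FDR = 0.206) and 0.02 (edgeR FDR = 0.761).

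Among the nuclear factors, LEF1 rose. LEF1 (ENSG00000138795, chromosome 4 of GRCh37 from 108968701 to 109090112), a DNA-binding partner of β-catenin, had 72, 91 and 87 counts in OV3/SCR and 172, 178 and 194 in OV3/COX1KD libraries. The lowest OV3/COX1KD library was well above the highest control, with a log2 fold change of 1.15 (SE 0.12, edgeR FDR = 6.8e-08). The 15 tested neighbours of LEF1 within 2 Mb were centred on a log2 fold change of 0.42 (median), with 9 higher and 3 lower by edgeR at an FDR under 0.01. The part of the neighbourhood in the rise of LEF1 was not tested. LEF1-AS1, which overlaps 5.2% of the exon length of LEF1, had a log2 fold change of -0.37 (edgeR FDR = 0.290).

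TCF7L1, which mostly represses, had 450, 446 and 477 counts in OV3/SCR and 354, 361 and 362 in OV3/COX1KD libraries, and fell by 0.32 on the log2 scale (edgeR FDR = 3.2e-04). TCF7L2, the TCF gene of highest level, had a log2 fold change of 0.11 (edgeR FDR = 0.0924), and TCF7, with 7 to 17 counts per library, had one of 0.39 (edgeR FDR = 0.339). Of the 4 TCF/LEF genes 1 rose and 1 fell, close to the 25.8% and 22.1% of all tested genes.

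Of the feedback inhibitors, the membrane ubiquitin ligases rose slightly and the intracellular inhibitors passed no threshold. AXIN2 had 34, 39 and 38 counts in OV3/SCR and 33, 27 and 50 in OV3/COX1KD libraries. The OV3/COX1KD libraries lay on both sides of the control, with a log2 fold change of 0.02 (edgeR FDR = 0.955) and a 95% interval of -0.45 to 0.48. A change inside that interval remains compatible with these counts. Another annotated gene on the same strand covers 25.3% of the exon length of AXIN2. ZNRF3, which with RNF43 removes Frizzled receptors from the cell surface, had 707, 694 and 728 counts against 819, 814 and 898 and a log2 fold change of 0.28 (SE 0.050, edgeR FDR = 7.0e-05). RNF43 had 167, 193 and 191 counts against 240, 220 and 248 and a log2 fold change of 0.39 (edgeR FDR = 0.0012), but an edgeR FDR of 0.0118 without OV3/SCR replicate 1. An annotated read-through gene covers 68.4% of the exon length of RNF43. NKD1 and NKD2, which bind Dishevelled, had log2 fold changes of 0.17 (edgeR FDR = 0.359) and 0.53 (edgeR FDR = 0.0550).

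**Figure D4:**
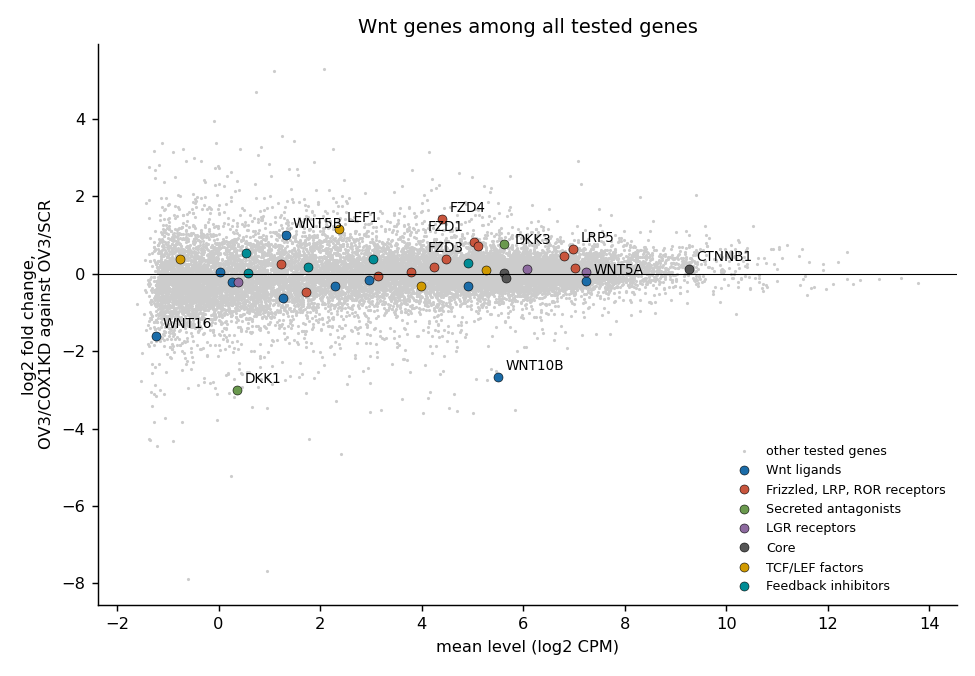
The log2 fold change of each tested gene (vertical axis) is plotted against its mean log2 CPM (horizontal axis), with the Wnt genes coloured by role over the other tested genes in grey. WNT10B at -2.68 lies apart from most genes of its level, while CTNNB1 at 0.13 and WNT5A at -0.18 lie inside the grey band.

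Other genes of the pathway were taken from a list of 62, of which 49 were tested. Of these, 20 were higher (40.8%, against 25.8%) and 8 lower (16.3%, against 22.1%) in OV3/COX1KD by edgeR, with a median log2 fold change of 0.10. With total count scaling the split was 18 higher and 14 lower, against 3466 higher and 4978 lower for all genes on that scale and 4473 and 3820 on the TMM scale, so the size of the split in this list moved with the scaling while more genes were higher than lower on both scales. The largest rises were those of APCDD1, a membrane inhibitor of Wnt signalling (1.47, edgeR FDR = 1.2e-12), TLE2, a Groucho co-repressor (1.03, edgeR FDR = 1.2e-09), and DAAM1, a formin of the planar polarity branch (0.93, edgeR FDR = 5.2e-14), all as log2 fold changes. PORCN, the acyltransferase that lipid-modifies Wnt proteins for secretion, had 232, 229 and 206 counts in OV3/SCR and 129, 112 and 127 in OV3/COX1KD libraries and fell by 0.83 on the log2 scale (SE 0.099, edgeR FDR = 5.9e-07). DACT3 (-0.64, edgeR FDR = 0.0027) and TLE1 (-0.40, edgeR FDR = 3.4e-08) fell as well, and the fall of DACT3 was lost by DESeq2 (FDR = 0.0115), without OV3/SCR replicate 3 (edgeR FDR = 0.0163) and without OV3/COX1KD replicate 1 (edgeR FDR = 0.0115). The gene of this list with the largest fall, TLE4, was below the abundance set for naming and is given after its values were seen, with 63, 85 and 79 counts against 10, 8 and 11 and a log2 fold change of -2.92 (edgeR FDR = 3.5e-09).

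By branch, 5 of 10 planar polarity genes were higher by edgeR, 6 of 13 tested nuclear cofactors were higher and 2 lower, and 2 of 11 destruction complex genes were higher and 1 lower, where 25.8% of all tested genes were higher and 22.1% lower. KREMEN1 and KREMEN2, which act with DKK1 to remove LRP6 from the membrane, both rose, with log2 fold changes of 0.66 (edgeR FDR = 9.8e-07) and 0.83 (edgeR FDR = 1.1e-09). They are named after their values were seen.

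A list of 25 genes often read as β-catenin targets held more genes called lower than higher. Of 21 tested, 5 were higher by edgeR (23.8%, against 25.8% of all tested genes) and 12 lower (57.1%, against 22.1%), with a median log2 fold change of -0.49. Several of these genes were singled out by the study in these libraries, so their direction is not independent evidence. The largest falls above the abundance limit were those of CCND1, which encodes cyclin D1 (-1.52), NRCAM, a neuronal adhesion molecule (-1.51, edgeR FDR = 6.8e-15), and VCAN, the proteoglycan versican (-1.41, edgeR FDR = 1.3e-10), as log2 fold changes. Below that limit, MMP7 and FOSL1, named after their values were seen, fell further. MMP7 had 57, 38 and 37 counts against 2, 4 and 3 (-3.79, edgeR FDR = 3.3e-08). FOSL1 had 31, 16 and 28 against 5, 9 and 5 (-1.93, edgeR FDR = 1.7e-04). The largest rises were those of FGF9, a growth factor, with 28, 30 and 17 counts against 69, 106 and 86 (1.83, edgeR FDR = 6.3e-07), EPHB3, a guidance receptor of the gut crypt (0.49, edgeR FDR = 7.5e-08), and SOX9, a progenitor transcription factor (0.45, edgeR FDR = 1.1e-05). SP5, an almost universal β-catenin target named after its values were seen, had 39, 33 and 18 counts against 15, 9 and 19, which overlapped, and a log2 fold change of -1.03 (edgeR FDR = 0.00924). Most genes of this list also respond to other pathways, and their levels do not measure β-catenin activity.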

How the data were processed

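Total RNA of 3 OV3/SCR and 3 OV3/COX1KD passages was sequenced from TruSeq libraries. The authors aligned reads to hg19 (the GRCh37 build) with TopHat2, version 2.0 in the submitters' processing notes, and counted reads per gene with HTSeq. They deposited raw counts without normalization. The gene annotation, HTSeq mode and strand setting are not given in the sources used here.

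Differential expression was tested on the deposited counts with edgeR 4.0.16 under R 4.3.3 (TMM, filterByExpr, glmQLFit and glmQLFTest, condition as the only factor, Benjamini-Hochberg adjustment over 17309 tested genes). Calls used an FDR under 0.01, and the fold of 2.5 came from the study's methods. Standard errors are the log2 fold change divided by the square root of F, and 95% intervals use the matching t quantile. Libraries of 1 condition differed by more than sampling noise (chi-square per degree of freedom of at least 1.82), so none was a copy. OV3/COX1KD replicate 2 stood apart from its condition, at 4.92 against replicate 1 and 6.40 against replicate 3. Replicates 1 and 3 gave 1.91 between them. Spans and exon union lengths came from GENCODE 44 lifted to GRCh37, which had entries for all 53 measured Wnt genes and may differ from the authors' annotation. Promoter windows came from RefSeq.

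The members and lists were chosen with earlier results of these data known. Named with every library were called genes whose log2 fold change passed 0.5 in size, genes at or under 3 counts in all libraries of 1 condition and above in all of the other, and the gene of highest level in each role. From the pathway and target lists the 3 largest rises and falls above a mean log2 CPM of 1 were named, and further genes where the text says so. Alternatives were total count scaling, RLE size factors, DESeq2 1.42.0, testing without a filter, requiring 10 counts per library, the replicate number as a block and each library left out. The longest transcript as length was added after seeing the data. The scripts were tested on simulated data. Floors and counting intervals ignore PCR duplication.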

Additional observations from a re-analysis of the deposited data

How the results depend on the processing

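Each library left out in turn, total count scaling, RLE size factors, DESeq2, testing without a filter, requiring 10 counts per library and the replicate block were compared with the reported settings. WNT10B, DKK1, WNT5B, FZD4, FZD1, FZD3, FZD6, LRP5, DKK3 and LEF1 kept direction and call in every setting that tested them. The 10-count filter left DKK1 and WNT16 untested, so the Wnt genes lower by more than 2.5-fold went from 3 to 1, and with no filter those higher by that fold went from 1 to 2. Across left-out libraries there were 11 to 15 higher and 5 to 8 lower Wnt genes, and 2 to 4 lower by more than 2.5-fold. Of the list read as β-catenin targets, 5 were higher and 8 lower with the 10-count filter, against 5 and 12 in the reported settings. With total count scaling the median log2 fold change of the Wnt genes was 0.031, and the other pathway genes called lower numbered 14. Without each library in turn that median lay between 0.060 and 0.14.

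Uncalled genes near 0 changed sign. With total count scaling the log2 fold changes were -0.027 for WNT4, -0.037 for FZD8, -0.041 for LGR4, -0.061 for AXIN1 and -0.061 for AXIN2, and with the 10-count filter -2.4e-04 for AXIN1 and -7.4e-04 for AXIN2. With a library left out they ranged from -0.50 to 0.053 for WNT2B, from -0.092 to 0.15 for WNT4, from -0.10 to 0.010 for FZD5, from -0.0022 to 0.083 for FZD8, from -0.012 to 0.045 for AXIN1, from -0.17 to 0.0089 for APC and from -0.24 to 0.19 for AXIN2. The cause was not tested. FZD7 passed the threshold without OV3/COX1KD replicate 2 (0.20, edgeR FDR = 0.00963), and CTNNB1, LRP6 and LGR5 lost it in the settings given with their values. WNT3 and WNT11 passed the threshold in the settings given with theirs.

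The labels speak of replicate pairs without saying which libraries form one. Same-numbered libraries deviated from their condition means with correlations of -0.0082, 0.046 and 0.027 across 12939 genes, and not every library correlated best with its own number. With the replicate block, 13 Wnt genes were higher and 6 lower, against 14 and 7 without it, with LGR5 (FDR = 0.0107) and ROR1 (FDR = 0.0127) outside the threshold by edgeR.

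Genes with few counts, such as AXIN2, TCF7 and WNT16, have wide intervals, and 14 measured Wnt genes were too scarce to test.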
